A study of Arabidopsis thaliana with 24 samples.

Results

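The EDS1 family and the helper immune receptors of Arabidopsis thaliana were followed through a response to a bacterial peptide in seedlings of 2 genotypes. The 9 genes were taken by locus identifier from the table of read counts, where they were 9 of 21407 loci: EDS1, EDS1B, PAD4 and SAG101 of the EDS1 family, and the helpers ADR1, ADR1-L1, ADR1-L2, NRG1.1 and NRG1.2. Seedlings of the Col-0 ecotype, 2 weeks old, were either wild type (WT) or overexpressed the long noncoding RNA ELENA1 (OX). They were sampled untreated (0 h), or 1 h, 6 h and 12 h after transfer from solid medium to liquid medium with 5 µM elf18, a peptide from the N terminus of the bacterial translation factor EF-Tu, which the receptor kinase EFR perceives. Each of the 8 groups held 3 replicates, which the series calls biological. The promoter of the transgene and the number of independent lines are not given in the labels, and the ELENA1 transcript was not analysed here, so the genotype labels were not checked against it.

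EDS1, PAD4 and SAG101 are lipase-like proteins. EDS1 binds either PAD4 or SAG101, and both complexes are activated by small nucleotide signals that are made by immune receptors with a Toll/interleukin-1 receptor (TIR) domain. The EDS1–PAD4 complex works with helper receptors of the ADR1 type, and the EDS1–SAG101 complex with those of the NRG1 type. The helpers carry an N-terminal RPW8-like coiled-coil domain and form calcium-permeable channels at the plasma membrane. The ADR1 branch is best known for salicylic acid signalling and restriction of pathogen growth, and the NRG1 branch for host cell death.

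Total counts were 18767661 to 85230211 per library, and replicate 3 of every group was the shallow one, at 18767661 to 23645600. All 9 genes passed the filter on low counts, as did 21015 of the 21407 loci. Levels are given as CPM, counts scaled to the TMM-adjusted library size, and differences as log2 fold changes ± SE from edgeR's quasi-likelihood test with Benjamini-Hochberg adjustment over all 21015 genes. A gene is called where the adjusted p was under 0.05. No seedlings were moved to liquid medium without the peptide, so in a comparison with 0 h the effects of elf18, of the move to liquid and of clock time cannot be told apart. In whole seedlings, fewer cells of a type and less RNA per cell cannot be told apart either. Markers of shoot, root, phloem and stomatal lineage were all detected, which goes with the labelled whole seedling.

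The genes include 2 tandem pairs, shown here because the members of a pair lie side by side and yet differed in level or in time course. In the TAIR10.1 annotation EDS1 (AT3G48090) lies on chromosome 3 at chr3:17755329-17758147, minus strand, and EDS1B (AT3G48080) follows it at chr3:17752463-17755190, minus strand, with 138 bases between them. NRG1.2 (AT5G66910) lies at chr5:26718130-26721377 and NRG1.1 (AT5G66900) at chr5:26714723-26717958, both on the minus strand and 171 bases apart. Over aligned bases, with gaps left out, the coding sequences were 84% identical between EDS1 and EDS1B and 84.1% between NRG1.1 and NRG1.2. The longest run that the coding sequences of each pair share without a difference was 44 bases for EDS1 with EDS1B and 79 bases for NRG1.1 with NRG1.2. They are given here 5′ to 3′ on the coding strand, from chr3:17757127-17757170 in EDS1 and chr5:26715550-26715628 in NRG1.1:
EDS1 and EDS1B: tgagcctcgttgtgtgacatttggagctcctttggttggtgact
NRG1.1 and NRG1.2: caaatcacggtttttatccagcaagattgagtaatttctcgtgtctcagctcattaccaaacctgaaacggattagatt
Reads were 75 bases long. No 75-base word of the spliced EDS1 or EDS1B transcript occurred in another transcript, and 5 words were shared by NRG1.1 and NRG1.2, or 0.176% of those of NRG1.1. PAD4, SAG101, ADR1, ADR1-L1 and ADR1-L2 shared 0 such words with any transcript. How the counting treated mismatches is not given in the sources used here.

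The bases just before the annotated starts of the paired genes differ, and are shown because each gene of a pair has its own upstream stretch. They are the reference sequence of TAIR10.1, minus strand, 5′ to 3′, and end at the base before the annotated transcript start. EDS1 covers chr3:17758148-17758397 and NRG1.2 chr5:26721378-26721627, 250 bases each. EDS1B covers chr3:17755191-17755328 and NRG1.1 chr5:26717959-26718129, where the stretch is cut at the neighbouring gene. Capitals mark matches to TTGAC, the core of the W-box bound by WRKY factors, to TGACG, the core bound by TGA factors, or to CGCG, the core bound by CAMTA factors, on either strand:
EDS1: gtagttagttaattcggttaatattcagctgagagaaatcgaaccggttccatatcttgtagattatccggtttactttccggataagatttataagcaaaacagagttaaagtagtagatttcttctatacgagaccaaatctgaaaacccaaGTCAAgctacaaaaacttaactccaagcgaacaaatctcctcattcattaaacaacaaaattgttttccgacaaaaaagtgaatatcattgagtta
EDS1B: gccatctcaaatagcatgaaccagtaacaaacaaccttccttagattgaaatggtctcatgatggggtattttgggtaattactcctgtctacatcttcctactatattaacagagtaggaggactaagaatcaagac
NRG1.1: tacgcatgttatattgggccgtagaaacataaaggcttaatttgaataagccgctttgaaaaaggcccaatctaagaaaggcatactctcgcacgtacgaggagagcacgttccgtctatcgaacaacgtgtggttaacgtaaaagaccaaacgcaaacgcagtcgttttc
NRG1.2: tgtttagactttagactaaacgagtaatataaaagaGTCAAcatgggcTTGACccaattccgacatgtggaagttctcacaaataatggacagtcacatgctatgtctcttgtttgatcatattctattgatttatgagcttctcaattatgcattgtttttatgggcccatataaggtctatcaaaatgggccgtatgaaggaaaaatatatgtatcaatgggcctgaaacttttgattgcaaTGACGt
TTGAC or its complement GTCAA was found in the 250 bases before the starts of EDS1, EDS1B, SAG101 and NRG1.2, and in 44.9% of the 27438 promoters of that length in the annotation. In EDS1B and SAG101 the match lay past the neighbouring gene's end, 202 and 177 bases before the start. NRG1.2 had 2 such matches, on opposite strands 202 and 214 bases before the start, and a TGACG that begins 6 bases before it. TGACG or CGTCA was present in 18.6% of promoters. CGCG, present in 10.1%, was found in ADR1-L2. TTGAC and TGACG can overlap in TTGACG, which did not occur in these windows. A match is a description of letters and was not tied to any level below.

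Set per kilobase of spliced transcript, the helpers ADR1-L1 and ADR1-L2 had the highest levels and EDS1B the lowest. The mean over the 8 groups was 44.3 CPM per kb for ADR1-L1, 30.2 for ADR1-L2 and 23.2 for EDS1. SAG101 followed with 15.4 CPM per kb, PAD4 with 14.0, ADR1 with 12.6, NRG1.1 with 9.49 and NRG1.2 with 7.15, and EDS1B had 3.01. The group means of FPKM in the authors' deposited table put the 9 genes in the same order, from 57.7 FPKM for ADR1-L1 to 3.97 for EDS1B. The ratio of the highest to the lowest group mean ran from 1.39 for ADR1-L2 to 4.11 for NRG1.1, against a median of 2.04 over all genes tested.

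EDS1, the hub that both complexes share, climbed at each successive time in WT. In WT its level was 29.7, 28.3 and 28.3 CPM at 0 h, 48.2, 43.7 and 42.7 at 1 h, 61.1, 56.8 and 56.2 at 6 h and 90.6, 86.8 and 90.9 at 12 h. In OX it was 33.7, 31.0 and 31.7 CPM at 0 h, 50.4, 49.9 and 57.7 at 1 h, 53.6, 62.7 and 61.5 at 6 h and 109.9, 106 and 107 at 12 h. The libraries of successive WT times did not overlap, and in OX 1 h and 6 h overlapped. Against 0 h, EDS1 rose in WT by 0.64 ± 0.07 (SE, adjusted p = 6.9e-08) at 1 h, 1.01 ± 0.07 (SE, adjusted p = 8.1e-11) at 6 h and 1.64 ± 0.07 (SE, adjusted p = 1.3e-14) at 12 h. The same differences in OX were 0.71, 0.88 and 1.75, all called. Ordered by group mean, EDS1 was highest in OX at 12 h and lowest in WT at 0 h, and OX stood above WT at every time. Of the neighbours in that order, WT and OX at 6 h overlapped, as did WT at 6 h and OX at 1 h.

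EDS1B, the tandem copy of EDS1 in Col-0, was not called in WT until 12 h and rose from 1 h on in OX. In WT its level was 5.56, 5.02 and 5.66 CPM at 0 h, 5.79, 5.74 and 5.18 at 1 h, 4.76, 4.83 and 5.50 at 6 h and 9.92, 9.90 and 8.67 at 12 h. The OX level was 5.85, 5.26 and 6.53 CPM at 0 h, 8.34, 8.66 and 11.3 at 1 h, 7.22, 7.08 and 7.81 at 6 h and 13.4, 12.8 and 15.6 at 12 h. The OX libraries were all above the WT libraries at 1 h, 6 h and 12 h, and overlapped them at 0 h. In WT the difference from 0 h was 0.06 ± 0.12 (SE, adjusted p = 0.68) at 1 h and -0.12 ± 0.12 (SE, adjusted p = 0.41) at 6 h, neither called, and EDS1B rose by 0.83 ± 0.11 (SE, adjusted p = 1.1e-06) at 12 h. With the trend of each library with transcript length taken out, the WT difference at 1 h was 0.27 (adjusted p = 0.049). In OX, EDS1B rose by 0.68 ± 0.11 (SE, adjusted p = 1.9e-05) at 1 h, 0.33 ± 0.12 (SE, adjusted p = 0.017) at 6 h and 1.24 ± 0.11 (SE, adjusted p = 1.7e-09) at 12 h. The OX call at 6 h was lost without replicate 2 of OX at 0 h (adjusted p = 0.077) and in libraries thinned to the smallest (adjusted p = 0.061). EDS1B was counted from 91 to 1113 reads per library, the fewest in replicate 3 of WT at 1 h.

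PAD4, the EDS1 partner of the ADR1 branch, was high at 1 h, low again at 6 h and high at 12 h, the last time sampled. In WT its level was 16.0, 13.6 and 13.8 CPM at 0 h, 47.1, 49.3 and 40.6 at 1 h, 18.8, 20.1 and 16.7 at 6 h and 40.3, 37.4 and 42.8 at 12 h. The corresponding OX levels were 16.4, 16.4 and 15.2 CPM at 0 h, 51.8, 48.6 and 54.2 at 1 h, 21.5, 24.5 and 19.6 at 6 h and 43.5, 45.6 and 42.9 at 12 h. Every library at 1 h and at 12 h was above every library at 0 h and 6 h. From 0 h to 1 h PAD4 rose by 1.66 ± 0.09 (SE, adjusted p = 4.5e-13) in WT and 1.68 ± 0.09 (SE, adjusted p = 4.4e-13) in OX. From 1 h to 6 h it fell, with a fold change of 0.407 (log2 SE 0.09, adjusted p = 2.4e-11) in WT and 0.425 (log2 SE 0.09, adjusted p = 6.9e-11) in OX, and from 6 h to 12 h it rose 2.15-fold (log2 SE 0.09, adjusted p = 3.6e-09) and 2.01-fold (log2 SE 0.09, adjusted p = 1.4e-08). Within each time the WT and OX libraries overlapped at 0 h, 1 h and 6 h and not at 12 h, where the genotype difference was not called.

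SAG101, the EDS1 partner of the NRG1 branch, rose by 1 h and stayed up. WT seedlings had 20.2, 15.4 and 14.4 CPM at 0 h, 40.9, 44.5 and 36.9 at 1 h, 35.3, 36.1 and 29.4 at 6 h and 33.0, 35.2 and 33.0 at 12 h. OX seedlings had 18.4, 18.3 and 19.3 CPM at 0 h, 31.4, 39.8 and 38.7 at 1 h, 24.1, 35.1 and 33.9 at 6 h and 46.5, 41.7 and 45.8 at 12 h. It rose from 0 h to 1 h by 1.28 ± 0.13 (SE, adjusted p = 1.8e-08) in WT and 0.98 ± 0.13 (SE, adjusted p = 1.1e-06) in OX. From 6 h to 12 h the difference was 0.00 ± 0.13 (SE, adjusted p = 1) in WT, and SAG101 rose by 0.53 ± 0.13 (SE, adjusted p = 0.0025) in OX. At 12 h the OX libraries were all above the WT libraries, with a difference of 0.40 ± 0.13 (SE, adjusted p = 0.11) that was not called. A fit to just the 12 h libraries called it (adjusted p = 0.011; range over 14 alternatives 0.011 to 0.33). Of the 7 neighbouring pairs in its order of group means, 6 overlapped.

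**Figure D1:**
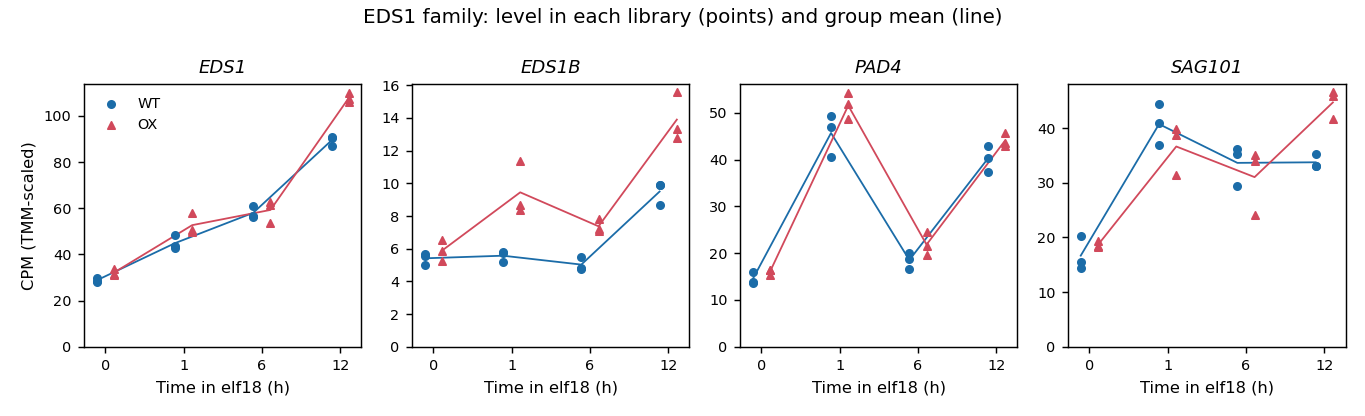
Level of the 4 EDS1 family genes (CPM, vertical axis from 0, scale differing between panels) against hours in elf18 (horizontal axis, evenly spaced categories), WT as blue circles and OX as red triangles, 1 point per library and lines through group means of 3. EDS1 climbs from 28.8 to 89.4 CPM in WT, PAD4 is high at 1 h and 12 h and lower at 6 h, and the OX points of EDS1B lie above the WT points at 1 h, 6 h and 12 h.

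Among the helpers, ADR1 was not called at 1 h and climbed at the later times. In WT its level was 26.8, 21.1 and 23.02 CPM at 0 h, 22.6, 24.3 and 20.4 at 1 h, 40.4, 37.6 and 37.6 at 6 h and 58.7, 58.8 and 57.6 at 12 h. In OX it was 25.4, 27.6 and 22.3 CPM at 0 h, 21.3, 24.8 and 23.1 at 1 h, 33.0, 37.1 and 40.7 at 6 h and 70.8, 64.9 and 65.5 at 12 h. The libraries of 0 h and 1 h overlapped in both genotypes, and those of 6 h and 12 h were all above them. The difference at 1 h was -0.07 ± 0.10 (SE, adjusted p = 0.52) in WT and -0.13 ± 0.10 (SE, adjusted p = 0.24) in OX, neither called. With the length trend of each library taken out these turned to 0.20 (adjusted p = 0.039) in WT and 0.26 (adjusted p = 0.01) in OX, both called, so the direction at 1 h depends on that setting. The slope of the group mean on the log2 scale per doubling of transcript length, relative to all libraries, was 0.205 in WT at 0 h and -0.101 at 1 h, and 0.230 and -0.222 in OX. ADR1 rose 1.63-fold (log2 SE 0.09, adjusted p = 1.2e-06) at 6 h and 2.47-fold (log2 SE 0.09, adjusted p = 4.3e-11) at 12 h in WT, and 1.46-fold (log2 SE 0.09, adjusted p = 3.6e-05) and 2.66-fold (log2 SE 0.09, adjusted p = 1.1e-11) in OX.

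ADR1-L1 had the highest level of the 9 genes and changed by at most 2.00-fold between group means. WT seedlings had 119, 85.7 and 109 CPM at 0 h, 176, 173 and 195 at 1 h, 161, 152 and 149 at 6 h and 196, 184 and 203 at 12 h. The OX level was 128, 143 and 139 CPM at 0 h, 160.3, 166 and 183 at 1 h, 127, 148 and 157 at 6 h and 209.8, 198 and 218 at 12 h. At 0 h the OX libraries were all above the WT libraries, of which replicate 2 was the lowest. In WT it rose by 0.80 ± 0.10 (SE, adjusted p = 3.1e-07) at 1 h, 0.56 ± 0.10 (SE, adjusted p = 4.4e-05) at 6 h and 0.90 ± 0.10 (SE, adjusted p = 3.7e-08) at 12 h. In OX it rose by 0.31 ± 0.10 (SE, adjusted p = 0.0076) at 1 h and 0.61 ± 0.10 (SE, adjusted p = 9.5e-06) at 12 h, and at 6 h the difference was 0.07 ± 0.10 (SE, adjusted p = 0.55). That 6 h difference was 0.30 (adjusted p = 0.017), and called, with the length trend taken out. ADR1-L2, whose coding sequence was 74.4% identical over aligned bases to that of ADR1-L1 and 76% to that of ADR1, was the flattest. Its group means ran from 71.4 CPM in WT at 0 h to 99.3 in WT at 12 h. It rose by 0.38 ± 0.10 (SE, adjusted p = 0.0023) in WT at 1 h, while the OX difference was 0.06 ± 0.10 (SE, adjusted p = 0.59). With the length trend taken out, the OX difference of ADR1-L2 at 1 h was 0.42 (adjusted p = 0.00035), a called rise. At 12 h it rose by 0.48 ± 0.10 (SE, adjusted p = 0.0002) in WT and 0.26 ± 0.10 (SE, adjusted p = 0.025) in OX, and the OX call was lost without replicate 1 of OX at 0 h (adjusted p = 0.084) and without replicate 1 or 3 of OX at 12 h (adjusted p = 0.067 for each). Over 14 alternatives the WT difference at 12 h ran from 0.78 to 1.42 for ADR1-L1 and from 0.36 to 0.81 for ADR1-L2. The OX difference of ADR1-L1 at 1 h ran from 0.28 to 0.85. For both genes 6 of 7 neighbouring pairs in the order of group means overlapped.

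NRG1.1 and NRG1.2, the tandem helpers, moved in opposite directions at 12 h in both genotypes, NRG1.1 down and NRG1.2 up. In WT the level of NRG1.1 was 21.4, 24.03 and 26.5 CPM at 0 h, 60.8, 55.0 and 61.8 at 1 h, 15.2, 15.5 and 12.6 at 6 h and 16.9, 16.5 and 14.9 at 12 h. The corresponding OX levels were 26.0, 24.1 and 23.3 CPM at 0 h, 49.3, 50.3 and 49.1 at 1 h, 15.7, 14.8 and 14.3 at 6 h and 19.5, 17.95 and 19.3 at 12 h. All libraries at 1 h were above all at 0 h, and all at 6 h and 12 h were below all at 0 h. NRG1.1 rose from 0 h to 1 h by 1.31 ± 0.08 (SE, adjusted p = 4.1e-12) in WT and 1.02 ± 0.08 (SE, adjusted p = 3.9e-10) in OX, and then changed by -2.03 ± 0.09 (SE, adjusted p = 4.3e-15) and -1.73 ± 0.09 (SE, adjusted p = 8.8e-14) to 6 h. At 12 h it was still lower than at 0 h, with -0.56 ± 0.08 (SE, adjusted p = 3.7e-06) in WT and -0.38 ± 0.08 (SE, adjusted p = 0.00038) in OX. The OX call at 12 h was lost with the length trend taken out, where the difference was -0.12 (adjusted p = 0.27). The WT call at 12 h held in all 14 alternatives, with differences of -0.63 to -0.22 and an adjusted p of up to 0.048. Of its neighbours in the order of group means, WT and OX overlapped at 0 h and at 6 h, and WT at 12 h overlapped OX at 6 h.

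NRG1.2 was lowest at 1 h in WT and highest at 12 h in both genotypes. In WT its level was 17.8, 13.6 and 13.3 CPM at 0 h, 13.2, 14.3 and 13.5 at 1 h, 21.3, 21.4 and 18.1 at 6 h and 29.4, 28.9 and 27.5 at 12 h. OX seedlings had 19.8, 21.7 and 17.5 CPM at 0 h, 15.7, 14.9 and 17.1 at 1 h, 21.3, 18.7 and 21.6 at 6 h and 34.2, 30.0 and 32.9 at 12 h. At 12 h every library was above every library of the other times. The difference from 0 h at 1 h was -0.13 ± 0.11 (SE, adjusted p = 0.28) in WT, not called, and NRG1.2 fell in OX, with -0.32 ± 0.10 (SE, adjusted p = 0.0095). With the length trend taken out the OX value turned to 0.06 (adjusted p = 0.64), and the call was also lost without replicate 2 of OX at 0 h (adjusted p = 0.1) and without replicate 2 of OX at 1 h (adjusted p = 0.079). At 12 h it rose by 0.94 ± 0.10 (SE, adjusted p = 4e-08) in WT and 0.71 ± 0.10 (SE, adjusted p = 2e-06) in OX.

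**Figure D2:**
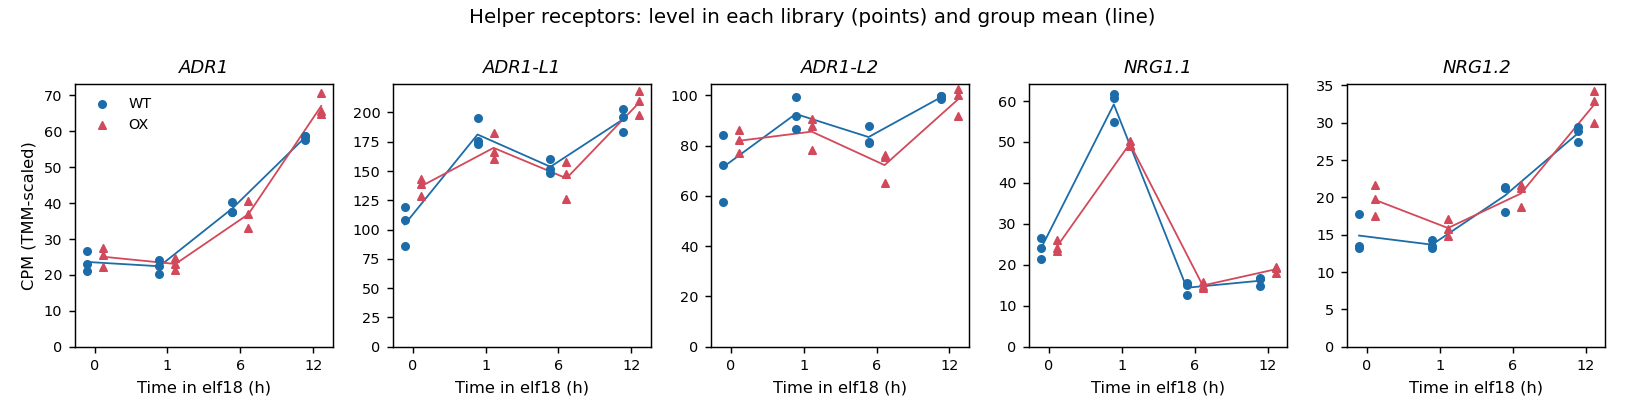
Level of the 5 helper receptors (CPM, vertical axis from 0, scale differing between panels) against hours in elf18 (evenly spaced categories), WT as blue circles and OX as red triangles, 1 point per library and lines through group means of 3. NRG1.1 has its maximum at 1 h, 59.2 CPM in WT, while ADR1 and NRG1.2 have theirs at 12 h.

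The balance within the NRG1 pair turned over during the response. Per length, NRG1.1 stood at 1.65 ± 0.408 times NRG1.2 in WT at 0 h (SD, n = 3), 4.31 ± 0.415 at 1 h, 0.707 ± 0.0122 at 6 h and 0.560 ± 0.0170 at 12 h. In OX the ratios were 1.24 ± 0.123, 3.11 ± 0.251, 0.727 ± 0.0655 and 0.581 ± 0.0133 at the same times. Every library at 0 h and 1 h was above 1, and every library at 6 h and 12 h was below 1. In the EDS1 pair, EDS1 stood at 5.38 ± 0.316 times EDS1B in WT at 0 h and 8.14 ± 0.400, 11.7 ± 1.33 and 9.55 ± 0.911 at 1 h, 6 h and 12 h. In OX it stood at 5.55 ± 0.572, 5.69 ± 0.494, 8.13 ± 0.743 and 7.89 ± 0.796. The OX ratios lay below the WT ratios at 1 h, 6 h and 12 h with no overlap, and overlapped them at 0 h.

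**Figure D3:**
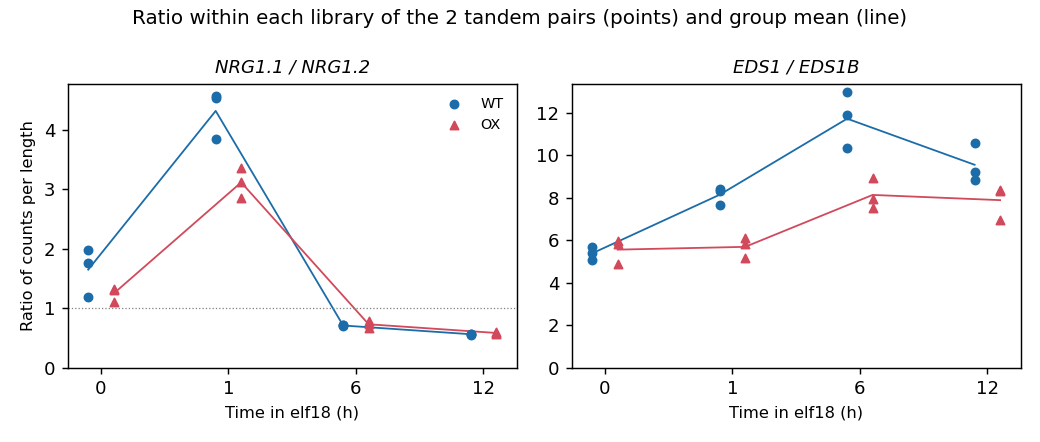
Ratio of counts per spliced length within each library, NRG1.1 over NRG1.2 (left) and EDS1 over EDS1B (right), against hours in elf18 (evenly spaced categories), WT as blue circles, OX as red triangles, lines through group means of 3. The dotted line on the left marks equal levels, which the NRG1 ratio crosses between 1 h and 6 h, from 4.31 to 0.707 in WT.

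Correlations of log2 CPM over the 8 group means describe which of the 9 genes had like time courses. They rest on 8 points that share libraries and time, and no test was made. ADR1 and NRG1.2 had r = 0.96, ADR1-L1 and ADR1-L2 0.91, ADR1-L1 and SAG101 0.90, EDS1 and ADR1 0.89, PAD4 and ADR1-L1 0.86, EDS1 and ADR1-L1 0.84, PAD4 and SAG101 0.84, and EDS1 and NRG1.2 0.82, which are all the pairs at 0.8 or above. NRG1.1 had r = -0.68 with NRG1.2 and -0.69 with ADR1. Among 17691 tested genes of sufficient level, the 3 closest to EDS1 were AT1G65250, a protein kinase family gene, AT1G26690 and SULTR3;4, with r of 0.996, 0.994 and 0.993. Those closest to PAD4 were AT3G50810, AT3G02770 and AT4G31170, with r of 0.995, 0.993 and 0.991, and those closest to SAG101 were IWS1, AT1G30640 and CDPK6, with 0.990, 0.990 and 0.984. For ADR1 they were COBL2, AT1G28580 and AT5G24760, each with 0.994. For NRG1.1 they were PTR6, AT5G22120 and BZIP25, with 0.997, 0.996 and 0.995.

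Counted over the 9 genes, those higher than at 0 h outnumbered those lower at each time in both genotypes, in a transcriptome where a large share of genes moved both ways. At 1 h in WT 6 of 9 rose and the other 3 were not called, against 35.2% of all genes higher and 32.6% lower. At 6 h in WT 6 rose and 1 fell, against 29.8% higher and 28.1% lower, and at 12 h 8 rose and 1 fell, against 35.2% and 37.4%. In OX 6 rose and 1 fell at 1 h, against 35.2% higher and 33.7% lower. At 6 h in OX 5 rose and 1 fell, against 30.1% and 28.8%, and at 12 h 8 rose and 1 fell, against 34.9% and 35.2%. NRG1.1 was the gene that fell at 6 h and 12 h in both genotypes. The median log2 fold change of the 9 genes at 12 h was 0.94 in WT and 1.24 in OX, and the median over all genes was -0.04 and -0.02.

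Between 1 h and 6 h the genes parted. In WT 3 rose (EDS1, ADR1 and NRG1.2) and 3 fell (PAD4, ADR1-L1 and NRG1.1), against 34.7% of all genes higher and 34.4% lower. In OX the 3 that rose were EDS1, ADR1 and NRG1.2, and 5 fell (PAD4, NRG1.1, EDS1B, ADR1-L1 and ADR1-L2), against 34.4% and 33.5%. Of those 5, the calls of EDS1B, ADR1-L1 and ADR1-L2 were lost without replicate 3 of OX at 1 h (adjusted p = 0.065, 0.11 and 0.091), those of ADR1-L1 and ADR1-L2 also without replicate 1 of OX at 6 h (0.16 and 0.14), and that of ADR1-L2 without replicate 2 of OX at 1 h (0.066). The EDS1 rise in OX, 0.17 ± 0.07 (SE, adjusted p = 0.037), was lost in 7 alternatives. With the length trend taken out it was 0.01 (adjusted p = 0.92), without replicate 1 or 2 of OX at 1 h it was 0.13 and 0.11 (adjusted p = 0.16 and 0.21), and without replicate 2 or 3 of OX at 6 h it was 0.12 and 0.14 (adjusted p = 0.2 and 0.13). The ADR1-L1 call in WT was lost without replicate 3 of WT at 1 h (adjusted p = 0.12) and without replicate 2 or 3 of WT at 6 h (0.087 and 0.098). The length setting also ended the NRG1.2 rise in OX, which was 0.16 (adjusted p = 0.19), and called falls of SAG101 in WT (-0.33, adjusted p = 0.015) and OX (-0.31, adjusted p = 0.023), and of EDS1B (-0.31, adjusted p = 0.025) and ADR1-L2 (-0.31, adjusted p = 0.0044) in WT. SAG101 was also called lower in WT without replicate 3 of WT at 1 h (-0.35, adjusted p = 0.035), and in OX without replicate 1 of OX at 1 h or replicate 2 of OX at 6 h (-0.36 each, adjusted p = 0.025 and 0.029). Between 6 h and 12 h 7 of 9 rose in WT and the other 2 were not called, against 26.4% of all genes higher and 26.5% lower. The ADR1-L2 rise, 0.25 ± 0.10 (SE, adjusted p = 0.039), was lost in 6 of 14 alternatives, 5 of them without 1 library: replicate 2 or 3 of WT at 6 h (0.099 and 0.083) or any 1 of the WT libraries of 12 h (0.076, 0.061 and 0.073). NRG1.1, not called at 0.16 ± 0.09 (SE, adjusted p = 0.13), was called with the length trend taken out (0.40, adjusted p = 0.0019). In OX 9 of 9 rose from 6 h to 12 h, against 20.2% higher and 17.7% lower. All comparisons with 0 h in a genotype share its 0 h libraries. The summed level of 3 photosynthetic shoot markers was 10730 to 19330 CPM at 0 h, 22080 to 31780 at 1 h, 7217 to 8966 at 6 h and 3208 to 4240 at 12 h over both genotypes, and its part in these time courses was not tested.

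**Figure D4:**
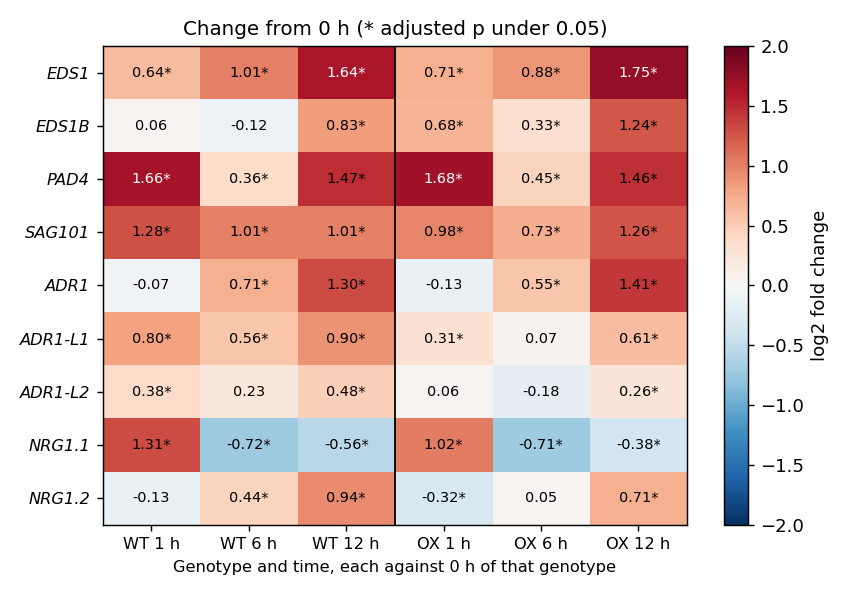
Log2 fold change from 0 h of the same genotype (colour and printed value, red higher, blue lower) for the 9 genes (rows) at 1 h, 6 h and 12 h in WT (left 3 columns) and OX (right 3 columns). Asterisks mark an adjusted p under 0.05 in edgeR's quasi-likelihood test, and NRG1.1 is the gene below 0 at 6 h and 12 h in both genotypes, from -0.72 in WT at 6 h to -0.38 in OX at 12 h.

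The comparison of OX with WT asks how these genes differed between the 2 labelled genotypes before and during the response. EDS1B was the gene called at each elf18 time. At 0 h 2 of 9 genes were higher in OX against 7.7% of all genes higher and 6.91% lower, namely ADR1-L1 and NRG1.2. At 1 h 1 of 9 was higher, against 2.79% of all genes higher and 2.9% lower. At 6 h 1 of 9 was higher, against 0.857% and 0.661%, and at 12 h 1 of 9, against 0.923% and 0.723%, EDS1B in each case. The median log2 difference of the 9 genes was 0.15 at 0 h, 0.04 at 1 h, 0.01 at 6 h and 0.20 at 12 h, and that of all genes 0.03, -0.01, 0.00 and 0.01.

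EDS1B, with the values per library given above, was higher in OX by 0.73 ± 0.12 (SE, adjusted p = 0.00042) at 1 h, 0.56 ± 0.12 (SE, adjusted p = 0.015) at 6 h and 0.53 ± 0.11 (SE, adjusted p = 0.015) at 12 h, and at 0 h the difference was 0.11 ± 0.12 (SE, adjusted p = 0.6). The 1 h call held in all 14 alternatives, with differences of 0.62 to 0.82. The 6 h call was lost in 3 of 14, with an adjusted p of 0.093 and 0.068 when replicate 1 or 2 of WT was left out and of 0.056 in a fit of the 6 h libraries alone, over a range of adjusted p of 0.0012 to 0.093. The 12 h call was lost in 5 of 14, namely without replicate 3 of WT (0.085), without replicate 1 (0.055) or 3 (0.081) of OX, in thinned libraries (0.063) and without the 3 libraries with the steepest length trend (0.056), over a range of 0.0022 to 0.085, while the difference stayed between 0.45 and 0.58. A marker of senescing leaf, SAG13, moved with the genotype too: it was at 10.8 to 18.5 CPM in OX and 4.53 to 7.61 in WT at 1 h, 9.62 to 12.4 and 4.02 to 6.49 at 6 h, and 42.8 to 53.4 and 20.9 to 24.5 at 12 h. At 0 h SAG13 was at 13.6 to 15.0 CPM in OX, within the WT range of 10.3 to 19.2. The other senescing leaf marker listed, SAG12, was not among the loci counted, so that list rests on SAG13 alone. The 3 root markers summed to 22.8 to 23.8 CPM in OX and 34.5 to 37.8 in WT at 12 h. At 6 h their sum was 18.2 to 21.4 CPM in OX and 21.8 to 29.2 in WT. At 0 h it was 25.22 to 28.34 CPM in OX and 28.35 to 43.11 in WT. The 1 h ranges, 15.2 to 19.4 in OX and 13.9 to 19.3 in WT, overlapped. The part of SAG13 or of the root markers in the EDS1B difference, or in the 0 h differences below, was not tested.

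EDS1 itself was higher in OX in every library at 12 h, with a difference of 0.27 ± 0.07 (SE, adjusted p = 0.051) that just missed the threshold. It was called in 4 of 14 alternatives, among them DESeq2 (adjusted p = 0.019) and a fit with the replicate number as a block (0.045), over a range of 0.019 to 0.17. At 1 h the libraries did not overlap either and the difference was 0.23 ± 0.07 (SE, adjusted p = 0.067), called in 6 of 14 alternatives over a range of adjusted p of 0.0085 to 0.21. NRG1.1 was lower in every OX library at 1 h, with -0.25 ± 0.08 (SE, adjusted p = 0.067), not called here and called by DESeq2 (0.034; range over 14 alternatives 0.034 to 0.33).

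At 0 h ADR1-L1 was higher in OX by 0.39 ± 0.10 (SE, adjusted p = 0.0083) and NRG1.2 by 0.40 ± 0.10 (SE, adjusted p = 0.0099). NRG1.2 was at 19.8, 21.7 and 17.5 CPM in OX and 17.8, 13.6 and 13.3 in WT, so its groups overlapped. Both calls were lost in a fit of the 0 h libraries alone (adjusted p = 0.097 and 0.12) and without replicate 2 of WT (0.074 and 0.079). The NRG1.2 call was also lost without replicate 3 of WT (0.052) and without replicate 2 of OX (0.07). Over 14 alternatives the adjusted p ranged from 0.0012 to 0.097 for ADR1-L1 and from 0.00034 to 0.12 for NRG1.2. ADR1-L2, not called at 0.20 ± 0.10 (SE, adjusted p = 0.21), was called without replicate 1 of WT (0.34, adjusted p = 0.016).

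**Figure D5:**
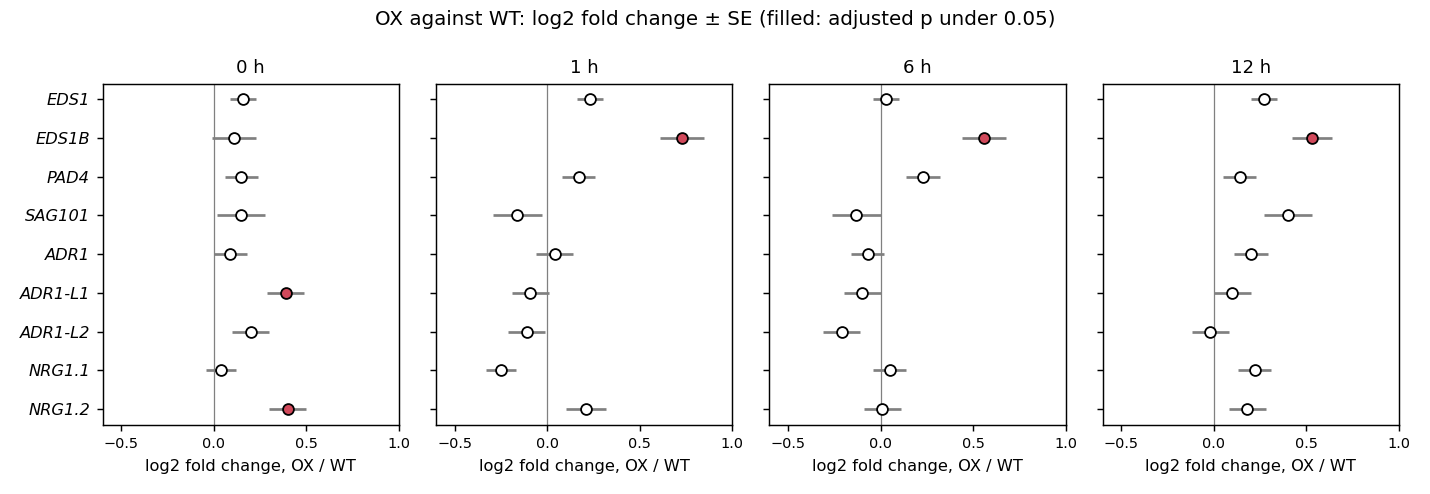
Log2 fold change of OX over WT (horizontal axis, with SE as bars) for the 9 genes (rows) at 0 h, 1 h, 6 h and 12 h (panels), filled where the adjusted p was under 0.05 in edgeR's quasi-likelihood test. EDS1B is filled at 1 h, 6 h and 12 h, at 0.73, 0.56 and 0.53, and ADR1-L1 and NRG1.2 at 0 h.

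Whether the response itself differed between genotypes was tested as an interaction. At 1 h 2 of 9 genes were called, 1 in each direction, against 6.06% of all genes higher and 6.64% lower. The EDS1B response was larger in OX, by 0.62 ± 0.16 (SE, adjusted p = 0.015), and that of ADR1-L1 smaller, with -0.48 ± 0.14 (SE, adjusted p = 0.024). At 6 h ADR1-L1 was called again, with -0.49 ± 0.14 (SE, adjusted p = 0.037), where 3.43% of all genes were called higher and 2.92% lower, and EDS1B was not, with 0.45 ± 0.16 (SE, adjusted p = 0.11). At 12 h 0 of 9 genes were called by edgeR's quasi-likelihood test (3.07% of all genes higher, 2.45% lower), and DESeq2 called 0. In the edgeR test 2 of 9 had an unadjusted p under 0.05. The share of all genes under that unadjusted cut was not counted, so the 2 are not read as a difference. The EDS1B call at 1 h was lost in 1 of 20 alternatives, libraries thinned to the smallest (adjusted p = 0.085, range 0.0062 to 0.085). The ADR1-L1 calls were lost in 9 of 20 alternatives at 1 h (range 0.0051 to 0.17) and in 11 of 20 at 6 h (range 0.0058 to 0.13), among them each time the fit without replicate 2 of WT at 0 h (0.089 and 0.12), replicate 2 of OX at 0 h (0.072 and 0.093) or replicate 3 of OX at 0 h (0.056 and 0.079). The 1 h call was also lost without replicate 3 of WT at 1 h (0.071) or replicate 1 or 2 of OX at 1 h (0.069 and 0.054), and the 6 h call without any 1 of the WT libraries of 6 h (0.1, 0.061 and 0.05) or replicate 1 of OX at 6 h (0.11). Calls were gained without replicate 1 of WT at 0 h. ADR1-L2 was then lower in its OX response at 1 h (-0.43, adjusted p = 0.023) and 6 h (-0.54, adjusted p = 0.0077). NRG1.2 was so at 6 h (-0.54, adjusted p = 0.0093).

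The wider pathway was described through lists of related genes. The alternative settings were read out for the 9 genes and not for the genes of these lists, so the calls below were not checked in them. Of 7 genes for outputs and partners of these complexes (FMO1, ALD1, ICS1, PBS3, EDS5, CBP60g and SARD1, which serve the synthesis of salicylic acid and N-hydroxypipecolic acid or its control), 7 of 7 rose by 12 h in both genotypes, with medians of 2.86 in WT and 2.84 in OX, against 35.2% and 34.9% of all genes higher. CBP60g, a transcription factor of that synthesis, rose by 2.86 ± 0.11 (SE, adjusted p = 7.6e-16) in WT, and ICS1, which makes the salicylic acid precursor, by 2.89 ± 0.13 (SE, adjusted p = 1.7e-14). At 1 h in WT 2 rose and 3 fell, against 35.2% of all genes higher and 32.6% lower. PBS3, the enzyme that conjugates isochorismate, changed by -1.81 ± 0.28 (SE, adjusted p = 6.4e-06) and FMO1, which makes N-hydroxypipecolic acid, by -1.67 ± 0.31 (SE, adjusted p = 6.5e-05). Their WT libraries at 0 h were uneven, with 12.0 ± 5.42 CPM (SD) for PBS3 and 4.30 ± 2.44 for FMO1. In the other direction, the WT group mean of CBP60g went from 19.7 CPM at 0 h to 75.8 at 1 h, and that of EDS5 from 25.1 to 43.3. In OX 3 of 7 were higher than in WT at 1 h, against 2.79% of all genes, FMO1 by 1.38 ± 0.32 (SE, adjusted p = 0.012), PBS3 by 1.33 ± 0.29 (SE, adjusted p = 0.0068) and ALD1, which acts earlier in the same pathway, by 1.36 ± 0.34 (SE, adjusted p = 0.018). ALD1 was also higher in OX at 6 h, by 1.93 ± 0.26 (SE, adjusted p = 0.00014), and at 12 h, by 1.07 ± 0.23 (SE, adjusted p = 0.018). These differences rest on low levels. At 1 h ALD1 was at 0.629 CPM in WT and 1.76 in OX, FMO1 at 1.38 and 3.825, and PBS3 at 3.36 and 9.02. ALD1 was at 1.31 CPM in WT and 4.67 in OX at 6 h.

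TIR-type receptors act upstream of EDS1. Of 15 tested, 5 were higher and 7 lower than at 0 h in WT at 12 h, with a median of -0.26, against 35.2% of all genes higher and 37.4% lower. In OX 6 were higher and 5 lower, with a median of 0.05, against 34.9% and 35.2%, so both counts lay near the share over all genes. The length slope of the group mean, as given for ADR1, was 0.205 in WT at 0 h and -0.195 at 12 h. In OX it was 0.230 and -0.059. The part of transcript length in these counts and medians was not tested. RPP5 changed by -1.45 ± 0.10 (SE, adjusted p = 1.1e-11) and RPP4 by -1.55 ± 0.11 (SE, adjusted p = 3.3e-11) in WT, while SOC3, a receptor that pairs with the truncated receptor CHS1, rose by 1.48 ± 0.17 (SE, adjusted p = 4.9e-08). RPP4 and RPP5 belong to a cluster of close copies, and their counts are uncertain. Between genotypes 4 of 15 were higher in OX at 0 h, 2 at 1 h, 1 at 6 h and 3 at 12 h, against 7.7%, 2.79%, 0.857% and 0.923% of all genes. SOC3 was higher in OX by 0.75 ± 0.17 (SE, adjusted p = 0.0038) at 0 h, 0.52 ± 0.15 (SE, adjusted p = 0.047) at 1 h and 0.74 ± 0.15 (SE, adjusted p = 0.015) at 12 h, and at 6 h the difference was 0.38 ± 0.16 (SE, adjusted p = 0.3), not called. CHS1 was the receptor called at 6 h, higher in OX by 0.72 ± 0.16 (SE, adjusted p = 0.019). It was also higher by 0.70 ± 0.15 (SE, adjusted p = 0.002) at 0 h and 0.77 ± 0.15 (SE, adjusted p = 0.0037) at 1 h. Its 12 h difference, 0.31 ± 0.13 (SE, adjusted p = 0.19), was not called. CHS1 was low, at 1.18 to 4.48 CPM over the group means.

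Of coiled-coil receptors and NDR1, a membrane protein that several of them need, 5 of 7 genes were higher in OX at 0 h, with a median of 0.37, against 7.7% of all genes higher and 6.91% lower. The medians at 1 h, 6 h and 12 h were -0.15, 0.03 and 0.19. The length slope of the group mean was 0.205 in WT and 0.230 in OX at 0 h, and -0.101 and -0.222 at 1 h. At 6 h it was 0.094 and 0.048, and at 12 h -0.195 and -0.059. The part of transcript length in these medians was not tested. ZAR1, which forms a channel of its own, was higher by 0.63 ± 0.10 (SE, adjusted p = 0.00018) and RPM1 by 0.55 ± 0.12 (SE, adjusted p = 0.0024) at 0 h. At 1 h in WT RPM1 rose by 2.37 ± 0.12 (SE, adjusted p = 4.7e-14) and ZAR1 by 2.27 ± 0.11 (SE, adjusted p = 3e-14). Of 8 negative regulators of immune receptors or cell death, 6 rose at 1 h in WT with a median of 0.87, against 35.2% of all genes higher. At 1 h in OX 6 rose and 2 fell, with a median of 0.65, against 35.2% higher and 33.7% lower. From 1 h to 6 h 8 of 8 fell in both genotypes, with medians of -1.15 in WT and -0.94 in OX, against 34.4% and 33.5% of all genes lower. NUDT7, a nucleotide hydrolase that restrains EDS1 signalling, rose by 2.26 ± 0.12 (SE, adjusted p = 8.6e-14) at 1 h in WT, and LSD1, a zinc finger repressor of cell death, by 1.45 ± 0.08 (SE, adjusted p = 1.8e-13). Of 5 receptor chaperones 5 of 5 were higher than at 0 h at 6 h in both genotypes, against 29.8% of all genes in WT and 30.1% in OX. HSP90.1 was lower in OX at 0 h, with -1.49 ± 0.13 (SE, adjusted p = 4.8e-08), and higher at 1 h, with 0.62 ± 0.13 (SE, adjusted p = 0.004). At 6 h and 12 h its differences were -0.18 and -0.11, not called. The median over all genes in these comparisons lay between -0.04 and 0.03.

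Other RPW8-domain genes that could be tested numbered 4 of 6. At 1 h in WT 2 of the 4 rose and 1 fell, against 35.2% of all genes higher and 32.6% lower. HR3 and HR4, small proteins with an RPW8 domain, rose by 3.03 ± 0.16 (SE, adjusted p = 2.7e-13) and 2.49 ± 0.20 (SE, adjusted p = 3.1e-10). NRG1.3 fell, with -1.03 ± 0.33 (SE, adjusted p = 0.0082), and HR2 was not called, with 0.23 ± 0.23 (SE, adjusted p = 0.39). NRG1.3, a short relative of the NRG1 pair, was low, at 0.132 to 1.03 CPM over the group means, and differed in its response between genotypes by 2.94 ± 0.48 (SE, adjusted p = 0.00025) at 1 h and 2.64 ± 0.42 (SE, adjusted p = 0.00058) at 12 h. At 0 h NRG1.3 was at 0.476 CPM in WT and 0.132 in OX, a difference of -1.80 ± 0.35 (SE, adjusted p = 0.00083).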

How the data were processed

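RNA-seq read counts per locus in 24 columns, 1 per library, were deposited by the authors, per the file headers. The authors also deposited FPKM as 1 value per group, per the file headers, used here only for the order of levels between genes. The build TAIR10 and the tools Cuffdiff, Cufflinks 2.1.1, DESeq2 and TopHat2 2.0.8 are listed per the submitters' processing notes, and polyadenylated RNA was sequenced from a strand-specific kit per the labels' protocols. Which program counted the reads, and whether by strand, is not given in the sources used here. In R 4.3.3, edgeR 4.0.16 was applied to the counts: TMM scaling, filterByExpr with a minimum count of 10, 8 group means in a single quasi-likelihood fit over 24 libraries, 17 comparisons, and Benjamini-Hochberg adjustment over all genes tested with a threshold of 0.05. Alternatives were DESeq2 1.42.0, other scaling, no filter, fewer libraries, thinned counts and a correction for transcript length. The fit was tested on simulated data. Of the loci, 21330 matched the TAIR10.1 annotation and 77 did not. Replicates differed beyond sampling noise in all 24 pairs within groups (chi-square per gene 1.6 to 51.8). Named are all 9 genes, up to 4 genes of each list with the smallest adjusted p or of opposite direction, and the 3 genes most alike in time course. The 9 genes and the lists were chosen with earlier results of these data known.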

Additional observations from a re-analysis of the deposited data

Results flagged for a closer look

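The response to elf18 differed between genotypes for EDS1B at 1 h, by 0.62 on the log2 scale (edgeR's quasi-likelihood interaction test, adjusted p = 0.015). It also differed for ADR1-L1, by -0.48 at 1 h (adjusted p = 0.024) and by -0.49 at 6 h (adjusted p = 0.037). The OX libraries of ADR1-L1 started above the WT libraries at 0 h and overlapped them at 1 h, 6 h and 12 h. Both ADR1-L1 differences use the same 0 h libraries.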

How the results depend on the processing

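Of the values recomputed per gene or per comparison, 2141 kept direction and call, 72 lost the call, 34 gained it, 54 moved and 3 reversed. With the length trend as an offset ADR1 at 1 h turned to 0.20 in WT and 0.26 in OX, and NRG1.2 at 1 h in OX to 0.06; the cause was not tested. The number of the 9 genes called in OX against WT was 3 at 1 h and 2 at 12 h by DESeq2. At 1 h it was 2 with no filter, 2 with the length offset and 2 when the 3 libraries with the steepest length trend were left out. At 12 h it was 0 without those 3 libraries. Fits of only the groups compared called 0 at 0 h, 0 at 6 h and 3 at 12 h, 4 for OX at 6 h against 1 h, 1 for the genotype difference at 1 h and 0 at 6 h. For that difference the length offset left 1 at 1 h and 0 at 6 h, thinning left 0 at both, and omission of the 3 libraries left 0 at 6 h. Without 1 replicate at a time the number ran from 0 to 3 for OX against WT at 0 h, 1 to 2 at 1 h, 0 to 1 at 6 h and 0 to 1 at 12 h, 5 to 8 for OX at 6 h against 1 h, and 1 to 3 and 0 to 3 for the genotype difference at 1 h and 6 h. Deviations of same-numbered replicates had a median r of 0.0506 over 84 pairs (highest 0.544, 33 over 0.1), against -0.0323 for different numbers, and all pairs were over 0.1 in 1 of 17 comparisons, so the numbers were not taken to pair the libraries, and the fit with a replicate block called 2 of the 9 genes at 12 h. Over all genes OX against WT had 3072, 1197, 319 and 346 calls at the 4 times, 3469, 1441, 428 and 562 with the block, and 1825 to 3578, 472 to 1162, 103 to 370 and 79 to 146 without 1 replicate. The remaining settings gave 1889 to 3936, 502 to 1483, 147 to 574 and 199 to 1018. OX at 6 h against 1 h had 14265 calls, 13198 to 14161 without 1 replicate and 12293 to 14583 in the remaining settings. The genotype difference had 2668 calls at 1 h and 1333 at 6 h. Without 1 replicate these were 1681 to 3299 and 747 to 2244, and in the remaining settings 1659 to 3043 and 691 to 1667. Depth limits EDS1B most, with 91 reads in its lowest library.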
